A study of Caenorhabditis elegans with 2 samples.

Results

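BLMP-1 summits that lay between genes, outside the promoter windows but still close to a transcript start, numbered 389 of the 3031 summits on nuclear chromosomes (12.8%). A summit is the base of highest enrichment in a peak. A summit was included when it fell in no protein-coding gene and in no promoter window, and when the nearest start of a protein-coding transcript was at most 2000 bp away. A promoter window covers the 1000 bp before such a start and the 200 bp after it. These are called near-start intergenic summits here. The other summits were 1515 in promoter windows, 544 distal intergenic ones more than 2000 bp from a start, and 583 within genes but outside those windows. The data come from chromatin immunoprecipitation with sequencing (ChIP-seq) of whole Caenorhabditis elegans hermaphrodites in the second larval stage, L2. Their strain, OP109, has the genotype unc-119(ed3) III; wgIs109, in which a transgene supplies BLMP-1 with GFP-FLAG at its C-terminus. All samples are of this 1 group, 2 biological replicates numbered 2 and 3, with no other genotype, stage or tissue beside it, and a control library is not analysed here. Whole animals give no information on which cells a summit comes from. The antibody label only describes the tagged line, and the antibody itself is not stated in the sources used.

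BLMP-1 is a zinc finger transcription factor, the counterpart in worms of PRDM1 (Blimp-1) in mammals. Larvae need it for normal epidermal development and for the schedule of their stages, and the mammalian protein binds a core sequence of the type AGTGAAAG. In C. elegans, intergenic sequence is short, most promoters lie directly upstream of the gene, and binding sites further out may lie close to several genes and to non-coding genes. For that reason the nearest start is used below only as an address, called the owner of a summit, and not as the gene that a site acts on.

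Sequences of 7 strong summits are shown first, since they carry the words whose counts follow. Each is 101 bases of the RefSeq genome sequence on the plus strand of ce11, 5′ to 3′, centred on the summit, and every one is intergenic with respect to protein-coding genes. Capitals mark matches to the word named for each. CTTTCACT and CTTTCGCT are the reverse complements of AGTGAAAG and AGCGAAAG, TCTCTCTC is that of GAGAGAGA and CTGCGTCT that of AGACGCAG. The first 3 hold the PRDM1 core (AGTGAAAG or AGCGAAAG): bcl-11 at chrV:6354349-6354449, 1626 bp upstream of its owner's start, cul-5 at chrV:10178444-10178544, 1041 bp upstream and inside the non-coding gene linc-146, and moe-3 at chrII:13167648-13167748, 1965 bp upstream. The next pair holds GAGAGAGA: rei-1 at chrIII:4099993-4100093, 1853 bp upstream, and noah-2 at chrIV:14089883-14089983, 1321 bp upstream. The last pair holds AGACGCAG: C16E9.2 at chrX:6934637-6934737, 1043 bp upstream, and nhr-21 at chrII:7337721-7337821, 1458 bp upstream.
bcl-11: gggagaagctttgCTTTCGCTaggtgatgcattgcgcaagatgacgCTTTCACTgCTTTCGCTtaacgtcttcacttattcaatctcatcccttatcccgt
cul-5: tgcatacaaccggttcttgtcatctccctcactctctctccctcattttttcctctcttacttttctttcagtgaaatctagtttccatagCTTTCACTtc
moe-3: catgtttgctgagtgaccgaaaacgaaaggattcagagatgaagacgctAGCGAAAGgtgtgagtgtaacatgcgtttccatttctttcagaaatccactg
rei-1: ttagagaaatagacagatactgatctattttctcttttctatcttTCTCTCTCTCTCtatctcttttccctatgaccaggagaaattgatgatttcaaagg
noah-2: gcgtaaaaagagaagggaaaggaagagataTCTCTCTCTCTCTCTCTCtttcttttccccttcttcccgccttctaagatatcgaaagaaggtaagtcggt
C16E9.2: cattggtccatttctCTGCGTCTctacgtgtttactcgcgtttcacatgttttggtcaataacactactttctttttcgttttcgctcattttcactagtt
nhr-21: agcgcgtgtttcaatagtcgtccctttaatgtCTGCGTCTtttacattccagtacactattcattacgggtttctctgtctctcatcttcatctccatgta
The bcl-11 sequence holds 3 copies of the core in 101 bases, the cul-5 and moe-3 sequences 1 each. The repeat at noah-2 holds 6 overlapping copies of GAGAGAGA and that at rei-1 holds 3.

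The strongest near-start intergenic summit belonged to bcl-11, a zinc finger gene related to mammalian BCL11, on chromosome V. Its signal, the authors' value for a peak on a scale not stated in the sources used, was 526, and it ranked 5 among all nuclear summits. It ranked 9 among the peaks of replicate 2 and 11 among those of replicate 3. The second summit of the group, at lin-41, had a signal of 274 and ranked 34 in replicate 2 and 45 in replicate 3. lin-41 encodes a TRIM-NHL protein of the heterochronic pathway, which times larval cell fates, and it is a target of the microRNA let-7.

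C16E9.2 on the X chromosome followed with a signal of 213, ranking 136 in replicate 2 and 56 in replicate 3. blmp-1 itself came next with 208, ranking 74 and 92 in replicates 2 and 3. gpdh-3, a glycerol-3-phosphate dehydrogenase gene, had 200.7 (ranks 64 and 77), and atf-2, a bZIP factor gene, had 196 (ranks 126 and 63). All these lay far inside the top peaks of both replicates, where the top peaks are as many of the strongest relaxed peaks of a replicate as the thresholded list holds. Signals of 171 were found at txt-7 and at let-858, a splicing-related gene, and 165 at cul-5, which encodes a cullin, the scaffold of a ubiquitin ligase. These 9 were the near-start intergenic summits among the 100 strongest nuclear summits (2.31% of the 389), against 44 of 1515 promoter summits (2.90%) and 26 of 544 distal ones (4.78%).

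The remaining owners of the 20 strongest summits had signals from 119 to 142. They were noca-2, D2021.4, pqn-83, C06G1.1, rei-1, which encodes a RAB-11 exchange factor, moe-3, mdl-1, a MAD-like bHLH factor gene, C47E12.13, F55G7.5, noah-2, an apical extracellular matrix gene of the cuticle, and doxa-1, a dual oxidase maturation factor gene. Of the 20, 18 lay upstream of the owner, the side of 82.0% of the whole group. The summits at mdl-1 and F55G7.5 lay beyond its 3′ end. One summit, at D2021.4, had no relaxed summit within 100 bp in replicate 2, whereas it ranked 140 in replicate 3. The other 19 were among the top peaks of both replicates. At least 1 of the 4 words counted below was present in 11 of the 20, against 118 of all 389 (30.3%) and 40.8% of the 130 strongest.

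**Figure D1:**
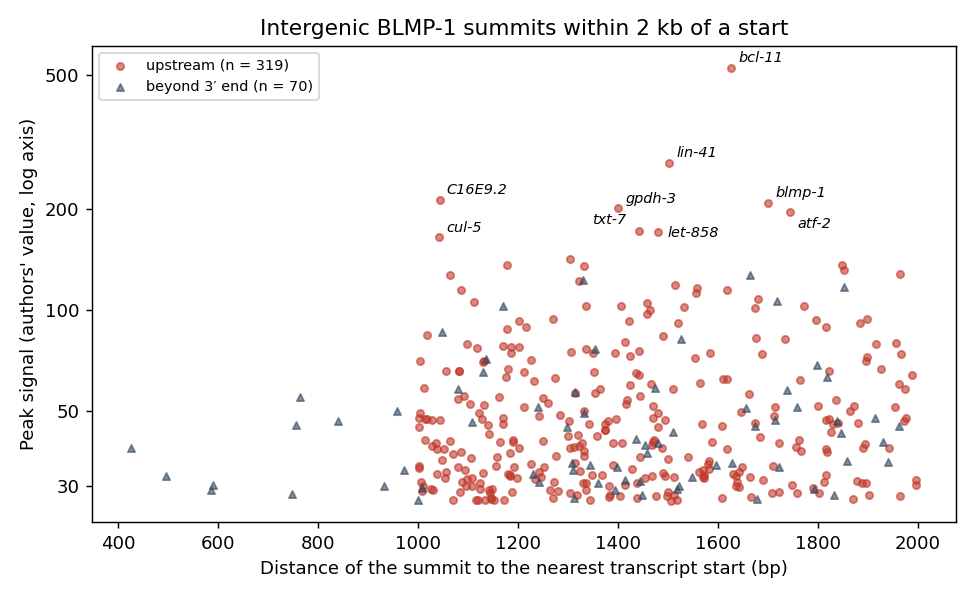
Signal of each near-start intergenic summit (vertical axis, the authors' value, log axis) against its distance to the nearest protein-coding transcript start (horizontal axis, bp), for 319 summits upstream of the owner (circles) and 70 beyond its 3′ end (triangles). The 9 strongest are named; bcl-11 stands highest at 526, and points below 1000 bp are triangles only.

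Most of the group was weaker than these. The signal ran from 27.1 to 526 with a median of 41.2 and quartiles of 31.96 and 62.2, against medians of 43.6 in promoter windows and 47.0 for distal summits. Of the 389, 184 were in the upper part of the thresholded list when that was split at its median rank. Signal and distance to the start were nearly unrelated across the summits (Spearman's rho 0.103, n = 389, a description, since neighbouring summits share sequence and all share the pooled libraries).

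The summits nearest the limits of the definition were mostly weak ones. Just inside the inner limit lay the summits of C35B1.5 and gldi-7, both at 1001 bp, with signals of 33.8 and 34.2. Just outside it lay those of srdh-1 at 996 bp and acer-1 at 993 bp, with signals of 44.0 and 42.7. At the outer limit, zyg-11, whose product directs a CUL-2 ubiquitin ligase, and B0019.2 were inside, both at 1997 bp, with 31.1 and 30.2. C01A2.2 at 2009 bp and K08B5.2 at 2023 bp were outside, with 32.9 and 260. K08B5.2 thus had the 1 strong summit among these 8.

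Several owners held more than 1 summit. Of 378 owner genes, 366 had 1 and 12 had 2, and the 5 leading genes among those 12 by summed signal were bcl-11, blmp-1, C34B4.2, bli-4 and F46C5.1. The second bcl-11 summit lay 609 bp closer to the start and had a signal of 47.3. Both lay in the 19905 bp between T28C12.6 and bcl-11, an interval with 7 further summits, all distal. The strongest of those had signals of 369 and 359, at 4634 and 3488 bp from the bcl-11 start, so that the near-start summit of 526 was the highest of the 9.

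The blmp-1 interval gave the reverse order. Its near-start summits lay 1701 and 1500 bp upstream, within 1 shared peak interval of 692 bp, with signals of 208 and 36.04. In the same interval between tag-353 and blmp-1 stood distal summits with signals of 721, 505 and 260, and a promoter summit 244 bp from the blmp-1 start with 421. The strain carries a transgene for tagged BLMP-1, and the control library is not analysed here. Whether the transgene adds to any of the signals at blmp-1 was not tested. A further pair, 1715 and 1914 bp from the tag-353 start and beyond its 3′ end, had signals of 47.0 and 47.6. That pair was 199 bp apart, the smallest spacing in the group; the first had a match within 100 bp in replicate 2 only and the second in replicate 3 only.

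At bli-4, a proprotein convertase gene required for the cuticle, the summits lay 1056 and 1989 bp upstream with signals of 65.7 and 64.0. Those of C34B4.2 lay 1797 and 1588 bp upstream with 93.3 and 40.4. F46C5.1 shared 1 of its summits, with a signal of 66.0, with F46C5.10, since both starts were 1081 bp away, and its other summit had 45.9. Over the whole group, 62 summits (15.9%) had another summit within 1000 bp, against 10.7% in promoter windows and 15.99% of distal summits. The difference from promoter windows was 5.25 percentage points (95% Newcombe interval 1.55 to 9.47) and from distal summits -0.0543 points (-4.73 to 4.83).

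The summits were placed mainly on the upstream side of their owners. There were 319 upstream (82.0%), where the sequence that met the rule was 5.97 Mb, or 53.4 summits per Mb (exact Poisson 95% interval 47.7 to 59.6). Beyond the 3′ end of the owner were 70 (17.99%) in 2.64 Mb, or 26.6 per Mb (20.7 to 33.5). The upstream density was thus higher than the 3′ one, and the intervals, which cover the counting of peaks only, did not overlap. By the orientation of the flanking genes, 136 summits between divergent genes gave 51.5 per Mb (43.2 to 61.0), 225 between tandem genes 48.5 (42.3 to 55.2) and 28 between convergent genes 21.1 (14.1 to 30.6). The convergent value lay below both others, whose intervals overlapped. Of the 28 convergent summits, 27 lay beyond a 3′ end, as did 0 of the 136 divergent ones. The low convergent density is therefore not an observation separate from the low 3′ density.

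Along the upstream side the density was not a steady decline. In steps of 500 bp from the nearest start, intergenic summits numbered 118 per Mb (110.7 to 126.5) in the first step and 45.6 (39.7 to 52.1) from 501 to 1000 bp. From 1001 to 1500 bp, in the inner part of the near-start range, the value was 60.7 (52.7 to 69.5). It was 43.9 (36.2 to 52.7) from 1501 to 2000 bp and 43.0 (34.4 to 53.1) from 2001 to 2500 bp. The step from 1001 to 1500 bp held 206 of the 319 upstream summits, and its interval lay just above that of the preceding step. These steps were chosen after the values were seen. Beyond the 3′ end the density was 32.9 (22.2 to 47.0) from 1001 to 1500 bp and 26.6 (17.7 to 38.5) from 1501 to 2000 bp, with overlapping intervals. Outside the near-start range, from 2001 to 2500 bp, it was 30.5 (20.6 to 43.6), against 43.0 upstream. From 2501 to 3000 bp it was 24.7 (15.3 to 37.8), against 42.4 (32.8 to 53.8) upstream. The 3′ value was thus the lower one in these distal steps as well, though there the intervals of the sides overlapped.

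**Figure D2:**
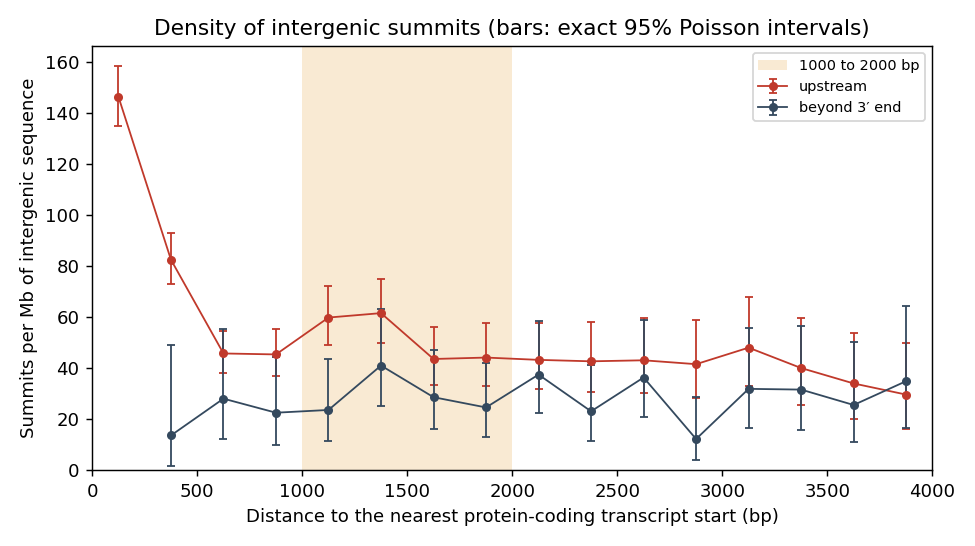
Summits per Mb of intergenic sequence (vertical axis) by distance to the nearest protein-coding transcript start in steps of 250 bp (horizontal axis), upstream of the start and beyond the 3′ end of its gene, with exact 95% Poisson intervals as bars. The shaded band is the range from 1000 to 2000 bp; the upstream line is at 146 per Mb next to the start and at 59.8 and 61.6 in the first steps of the band.

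The near-start density as a whole was 45.2 summits per Mb (40.8 to 49.9) over 8.61 Mb. It was 57.6 (54.7 to 60.5) in promoter windows, 33.0 (30.3 to 35.9) in distal intergenic sequence and 11.9 (11.0 to 12.9) within genes. The 26.3 Mb of promoter windows include their parts inside genes, and the value within genes leaves the windows out. The promoter value is therefore not for intergenic sequence alone. In upstream intergenic sequence alone, the density was 118 per Mb up to 500 bp and 45.6 from 501 to 1000 bp. Among chromosomes it ran from 33.8 per Mb on V (26.3 to 42.7) and 37.8 on IV (28.5 to 49.1) to 54.0 on I (40.3 to 70.8) and 62.5 on III (47.1 to 81.3), with 49.3 on II and 48.0 on X. Promoter windows had their highest density on III and X (77.2 and 76.2 per Mb) and their lowest on V (41.8). The flanking protein-coding genes stood 4270 bp apart at the median, from 232 to 20956 bp.

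Both replicates contributed to the group, though less often jointly than at distal summits. A summit within 100 bp was among the top peaks of replicate 2 for 286 of the 389 (73.5%) and of replicate 3 for 302 (77.6%). It was among those of both for 218 (56.0%, Wilson 95% interval 51.1 to 60.9), against 60.9% of promoter summits and 67.3% of distal ones. The difference from distal summits was -11.2 points (-17.5 to -4.92), and that from promoter summits -4.88 points (-10.4 to 0.565), an interval that includes 0. The near-start summits also had a slightly lower median signal than either class, and its part in these differences was not tested.

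Few of these sites were absent from a replicate altogether, but they were absent more often than promoter or distal summits. Of the 389, 31 had no relaxed summit within 100 bp in replicate 2 and 14 had none in replicate 3, and 19 were among the top peaks of neither. In replicate 2 such a summit was found for 358 of 389, against 1449 of 1515 promoter summits and 519 of 544 distal ones. In replicate 3 the counts were 375, 1480 and 532. Over the 345 found in both, the signals of the replicates had a Spearman's rho of 0.570, against 0.523 over 1417 promoter summits and 0.617 over 508 distal ones. All of them had passed a threshold that rests on both replicates. The most common peak width, 336 bp, was found in 286 of the group (73.5%), against 71.2% in promoter windows and 64.0% of distal peaks, and the difference from distal peaks was 9.55 points (3.51 to 15.4).

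**Figure D3:**
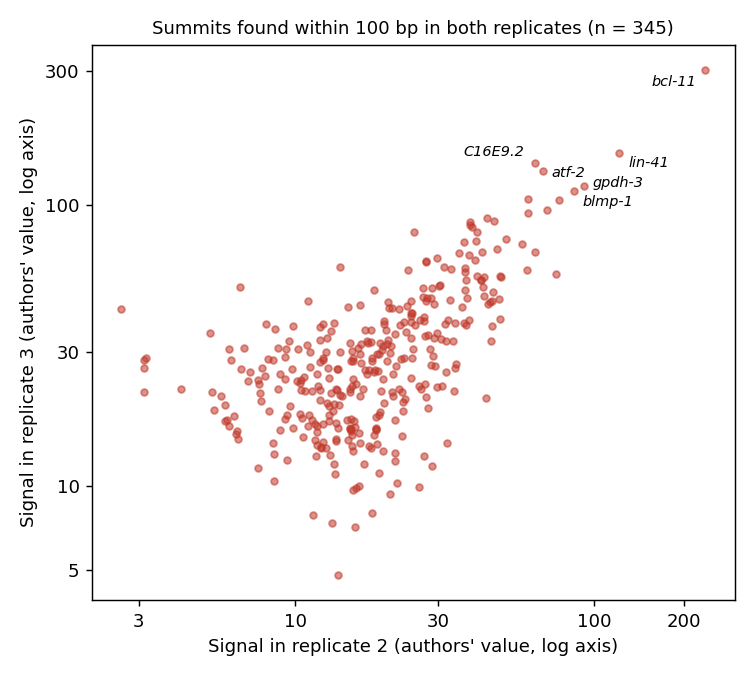
Signal in replicate 3 (vertical axis) against signal in replicate 2 (horizontal axis), both the authors' values on log axes, for the 345 near-start intergenic summits with a relaxed summit within 100 bp in both replicates. The 6 strongest summits of the thresholded list are named; bcl-11 is highest in both, and the scatter widens towards low signal.

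Occurrences of 4 sequence words were counted within 50 bp of each summit, on both strands, and in windows of the same 101 bp centred 1000 bp to the left and to the right. Those side windows were not restricted in location and can fall in genes or promoters. AAGTGAAA, GAGAGAGA and AGACGCAG were taken from earlier results of these data. Their tests at the same summits are therefore a description and not independent support. The PRDM1 core was present at 30 of 389 summits (7.71%, 5.46 to 10.8), against 2 of the left windows and 2 of the right ones (exact McNemar test, two-sided, p = 3.28e-07 on each side, adjusted by Benjamini-Hochberg over 4 words and 2 sides). AAGTGAAA, which shares the letters AGTGAAA with the core, was present at 36 (9.25%, 6.76 to 12.5), against 3 left and 6 right windows (exact McNemar test, adjusted p = 2.75e-08 and 2.83e-06). At 15 summits both were found, so these are in part the same sites.

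GAGAGAGA, a simple GA repeat, was the most frequent of the words. It was present at 46 summits (11.8%, 8.98 to 15.4), against 4 left and 6 right windows (exact McNemar test, adjusted p = 1.05e-09 and 2.75e-08). AGACGCAG was present at 33 (8.48%, 6.10 to 11.7), against 2 left and 4 right windows (exact McNemar test, adjusted p = 7.35e-08 and 1.24e-06). Of 85250 tiles of 101 bp that cover the sequence meeting the rule, 0.568% held the core, 1.41% AAGTGAAA, 0.823% GAGAGAGA and 0.624% AGACGCAG. Each word was thus several times as frequent at the summits as in the sequence around them, and 118 summits (30.3%) held at least 1. The share with at least 1 word is not given for the side windows, the tiles or the other classes. These tests compare positions within 1 set of pooled peaks and do not measure the spread between animals.

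Within 500 bp of the summit, each word was most frequent in the bins that adjoin it. In bins of 50 bp, the core was found in 4.63% of the summits in the bin just left of the summit and AGACGCAG in 5.91% in the bin just right of it. GAGAGAGA reached 7.20% in the bin left of the summit, against 3.96% of promoter summits and 6.62% of distal ones in the same bin.

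**Figure D4:**
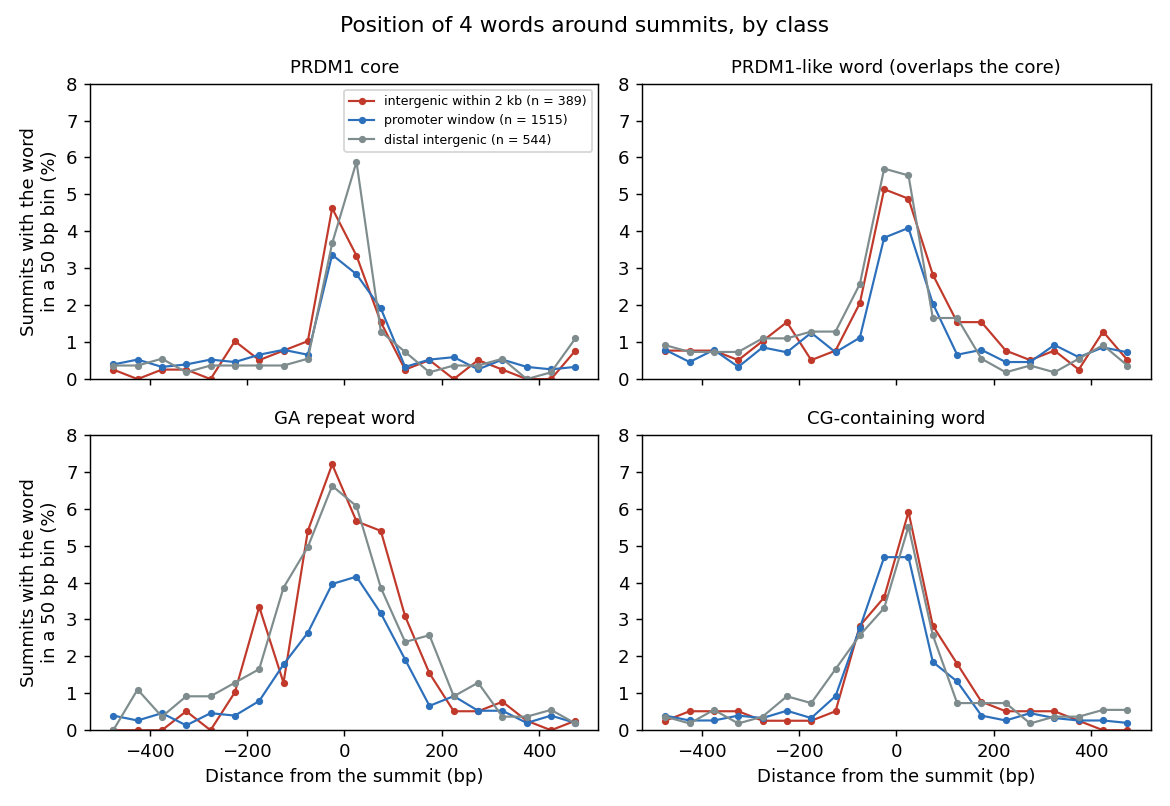
Percentage of summits with a word in each 50 bp bin (vertical axis) by distance from the summit (horizontal axis, bp), for near-start intergenic, promoter and distal intergenic summits. The panels are the PRDM1 core, the overlapping AAGTGAAA, the GA repeat GAGAGAGA and the CG-containing AGACGCAG; near-start summits reach 7.20% for the GA repeat, above the promoter line.

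Within 50 bp of the summit, the interval of the difference from promoter summits lay above 0 for 1 of the 4 words. GAGAGAGA was found at 11.8% of near-start summits, against 7.39% of promoter summits, a difference of 4.43 points (1.25 to 8.22), while distal summits had 11.0% (difference 0.796 points, -3.27 to 5.09). For the core, the 7.71% stood against 6.01% in promoter windows (difference 1.71 points, -0.905 to 4.98, though 2.17 points with an interval above 0 within 25 bp) and 8.82% at distal summits (-1.11 points, -4.62 to 2.62). The intervals for AAGTGAAA and AGACGCAG also included 0 in both comparisons. Over 9 measures 18 such differences between classes were computed, and 24 more for the 12 leading 6-letter words described below, with intervals that are not adjusted for their number.

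Taken as a group, the words were more frequent at strong summits. When the 389 were split into terciles by signal, at least 1 word was present at 40.8% of the strongest 130, 33.3% of the middle 129 and 16.9% of the weakest 130. For the core, the strongest tercile had 15.4% and the weakest 3.85%, a difference of 11.5 points (4.43 to 19.1). For GAGAGAGA the shares were 16.2% and 6.15%, a difference of 10 points (2.32 to 17.9), and for AAGTGAAA 13.1% and 5.38%, a difference of 7.69 points (0.566 to 15.1). The middle tercile had 3.88% for the core, 13.2% for GAGAGAGA and 9.30% for AAGTGAAA. AGACGCAG was most frequent in the middle tercile, at 12.4%, with 8.46% in the strongest and 4.62% in the weakest, and its difference between strongest and weakest, 3.85 points (-2.43 to 10.4), had an interval that included 0. By side, 8.46% of upstream summits and 4.29% of those beyond a 3′ end, 3 of 70, held the core. These splits were made after the data were seen.

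All 2080 words of 6 letters, with reverse complements counted as one, were then compared between the summit and the left window by the same exact test, adjusted over all words. At an adjusted p below 0.05, 97 were more frequent at the summits (4.66%) and 90 less frequent (4.33%). GAGAGA led, at 128 summits and in 25 left windows (exact McNemar test, adjusted p = 2.54e-17), followed among the words of higher frequency by AGAGAG, at 106 and in 20. Also more frequent were AGAGAC, found at 76 summits and in 6 left windows, AAGTGA at 94 and in 27, and ACGCAG at 51 and in 6. Of all tiles, 5.36% held GAGAGA, 4.79% AGAGAG, 3.47% AGAGAC, 7.30% AAGTGA and 1.89% ACGCAG. All of these but AGAGAC are stretches of the words already counted. Of the 12 words that led in this direction, 4 were more frequent at near-start summits than at promoter summits by an interval above 0. They were GAGAGA (5.38 points, 0.341 to 10.7), AAGTGA (5.42, 0.938 to 10.3), GTGAAA (5.79, 1.26 to 10.7) and AGAAAG (6.01, 1.54 to 10.9), and AAGTGA and GTGAAA are stretches of AAGTGAAA. GTGAAA was in 10.8% of all tiles and AGAAAG in 7.71%. The intervals of all 12 against distal summits included 0.

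Words made only of A and T led the opposite direction. AAAAAT was found at 70 summits and in 188 left windows (exact McNemar test, adjusted p = 1.89e-16), and AAAATT at 45 and in 150. The GC content of the summit windows had a median of 41.6%, against 34.7% in the left windows. Base composition therefore moved with the word counts, and its part in them was not tested.

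The group had 378 owner genes of the 10794 protein-coding genes that had any sequence meeting the rule (3.5%). A gene counted whatever the amount of such sequence it had, and the shares of genes below are not adjusted for that amount. Genes of the epidermis, of molting and of larval timing were among the owners, but no list was large. In the heterochronic list 1 of 12 genes with such sequence was an owner, lin-41. Of the molting list 3 of 25 (12%, 4.17 to 29.96) were owners: noah-2 with a signal of 122, noah-1, its relative in the same matrix, with 73.9, and grh-1, the Grainyhead factor gene, with 35.7. Of the seam and epidermal factors 2 of 11 (18.2%, 5.14 to 47.7) were owners, blmp-1 and grh-1. The first is the gene of the tagged factor itself, where a part of the transgene in the signal was not tested. The second is also in the molting list. The share of the seam and epidermal list without blmp-1 was not computed. All owners in these lists had upstream summits, the side of 82.0% of the whole group.

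Nuclear hormone receptors formed the longest set, with 13 of 173 genes (7.51%, 4.44 to 12.4). nhr-21 had a signal of 105, nhr-14 97.1 and nhr-10 65.2. All 13 summits were upstream, as were 82.0% of the whole group. Cuticle collagens had 8 of 105 (7.62%, 3.91 to 14.3) and differed in position: 7 of the 8 summits lay beyond the 3′ end. Their signals were low, with col-17 at 57.1, col-167 at 51.4 and col-73 at 46.4, and a median of 32.1. Collagen genes are short, so a summit beyond the 3′ end can still be within 2000 bp of the start, and each was assigned to the collagen because that start was the nearest. The intervals of both lists lay above 3.5%, as did those of the molting and the seam and epidermal lists, but the lists were chosen with results of these data known and their shares are a description.

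Of the other factor lists, bHLH genes had 3 of 30 owners (10%): mml-1, a Myc and Mondo-like gene, with 66.8, hif-1, the hypoxia-inducible factor gene, with 60.1, and hlh-33 with 54.6. mdl-1, with its signal of 127, is a bHLH factor that was not in that list. Of bZIP genes atf-2 was the 1 owner of 20. None of 74 homeobox genes was an owner (0%, up to 4.93%). In the Wnt list 2 of 21 were owners, pop-1, the worm TCF, with 62.2, and kin-19, a casein kinase gene, with 32.2.

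Signalling and secreted products gave small counts near the background. The hedgehog-related and patched-related list had 3 of 54, ptr-23 (47.2), ptc-3 (40.2) and grl-22 (28.0). Neuropeptides had 4 of 83, led by nlp-24 (50.01), nlp-29 (46.8) and nlp-40 (40.4), with 3 of the 4 beyond a 3′ end. Astacins had nas-7 (91.5) as 1 of 22, insulin-like peptides ins-13 (103, beyond the 3′ end) as 1 of 37, and C-type lectins 3 of 117, clec-91 (46.1), clec-1 (27.6) and clec-181 (27.3). Ribosomal protein genes had 0 of 33, histones 0 of 51 and insulin signalling genes 0 of 8.

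Chemoreceptor genes, a very large family expressed mainly in sensory neurons, had 3 owners of 817 (0.367%, 0.125 to 1.07), against 3.5% of all genes with such sequence. These were str-144 with 62.7, str-131 with 45.1 and str-56 with 29.0. It was the only list whose interval lay entirely below the background. The part of the amount of such sequence per gene in this low share was not tested.

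**Figure D5:**
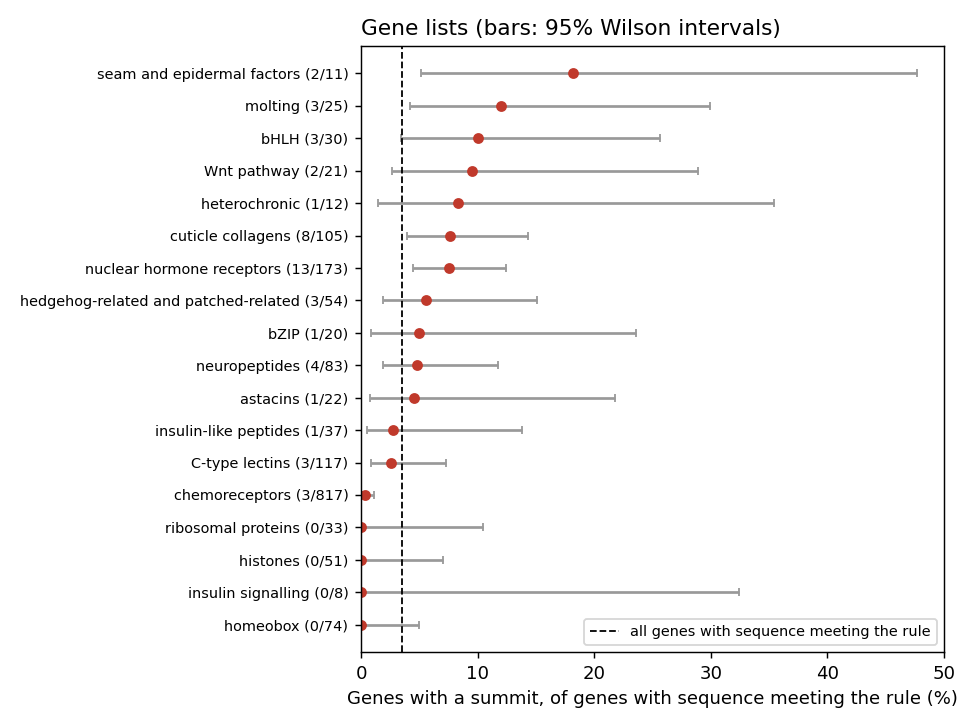
Percentage of the genes with sequence meeting the rule that own a near-start intergenic summit (horizontal axis), for 18 gene lists (vertical axis, with owners over genes), with 95% Wilson intervals as bars. The dashed line is the 3.5% of all such genes; the bars of the seam and epidermal, molting, cuticle collagen and nuclear hormone receptor lists lie above it and chemoreceptors, at 0.367%, below it.

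The owners often had a promoter summit as well. Of the 378, 82 (21.7%, 17.8 to 26.1) also held a summit in a promoter window, against 733 of the 10416 other genes with sequence meeting the rule (7.04%), a difference of 14.7 points (10.8 to 19.1). A summit in the promoter windows of several genes counts for each of them. The part of the amount of sequence meeting the rule per gene in this difference was not tested. For each of the 82, the strongest near-start summit was compared with the strongest promoter summit. The promoter summit was the stronger in 48, and the median signals were 45.8 for the near-start summit and 48.7 for the promoter summit. Some of these genes had more promoter summits than near-start ones, such as din-1 with 5 and 1 and egl-27 with 3 and 1. Taking the strongest can therefore favour the promoter side. Among the owners of the 20 strongest summits, 3 of 20 had a promoter summit, a small count beside the 21.7% of all owners. They were blmp-1 (near-start 208, promoter 421), atf-2 (196 and 265) and mdl-1 (127 and 112). bcl-11 and lin-41 had none in the thresholded list.

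Since the rule considered protein-coding genes only, the non-coding genes at these summits were counted separately, taking in any gene that held the summit or had it between 1000 bp upstream and 200 bp downstream of its start. Genes annotated only as ncRNA were present at 81 summits (20.8%, 17.1 to 25.1), against 10.3% of the sequence meeting the rule. Their starts were within 200 bp of 54 summits (13.9%, 10.8 to 17.7), against 3.65% of that sequence, limits that were chosen after the data were seen. The 3 strongest cases were bcl-11, whose summit was 10 bp from the start of F13H6.22, blmp-1, 16 bp from that of F25D7.6, and atf-2, 91 bp from that of K08F8.11. The let-858 summit lay 14 bp from the start of F38A3.4. These summits are near-start with respect to protein-coding genes and at the same time next to the start of an annotated non-coding gene.

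Genes of small structural RNAs were at few of the summits. tRNA genes were at 9 summits (2.31%, 1.22 to 4.34), against 0.854% of the sequence, and for 7 of these the tRNA start was within 50 bp, a limit also chosen after the data were seen. The owners of the strongest were cutl-28 (94.2), M02F4.2 (47.0) and ZK154.6 (40.9). snoRNA genes were at 9 as well, against 0.363% of the sequence, led by T27A8.8 (signal 85.8), T26A8.6 (68.8) and B0379.13 (40.3). The snoRNA start was within 50 bp of 3 of these 9 summits, and that of T27A8.8 was 781 bp away. One summit lay in the spliced leader gene sls-2.2 (103, owner ins-13).

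Other non-coding kinds gave no such excess. lincRNA genes were at 5 summits (1.29%, 0.550 to 2.97, against 0.962% of the sequence), led by linc-146 at the cul-5 summit (165), linc-105 (99.8) and linc-129 (82.3). A microRNA gene was at 1 summit (0.257%, against 0.364%), cel-mir-53, 186 bp from its start with a signal of 35.1 and with hrg-5 as owner. piRNA genes were at 12 (3.08%, 1.77 to 5.31), against 6.24% of the sequence, led by the summits at noah-2 (122), C34B4.2 (93.3) and Y59E9AL.4 (74.6). Pseudogenes were at 1 (0.257%, 0.0454 to 1.44), next to clec-181 with a signal of 27.3, against 13.5% of the sequence, the widest gap in that direction among the kinds counted.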

How the data were processed

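The peak lists of 2 biological replicates of L2 worms, each called against a control library, and the thresholded list that rests on both were used as deposited on ce11. Peak signal is the authors' value, taken unchanged. The −log10 q column, also made by the authors, holds 1 ceiling value throughout the thresholded list and ranked nothing. Neither the aligner and caller with their versions nor the reproducibility threshold is stated in the sources used. Read counts are in none of the lists; the depth is unknown, and intervals cover the counting of peaks only. The ce10 lists and the pooled list were not used.

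Genes came from Ensembl release 115 (WBcel235, the same assembly as ce11), with 19973 nuclear protein-coding genes. Summits repeated within a shared interval were kept. Words and windows were tested by the exact McNemar test, classes compared by Newcombe intervals, and densities given with Poisson intervals. The statistics were checked on simulated data. The simulated summit and side windows had the same base composition, so the check does not cover the difference in GC content between the real windows. Genes were named by a rule: owners of the 20 strongest summits, those nearest each distance limit, up to 3 per list or non-coding kind, and 5 of the genes with most summits, ties taken by summed signal; the 7 sequences were chosen after their values were seen, as strong summits with a word. The summits, lists and words were chosen with earlier results of these data known; the interval comparisons of width and spacing, the splits by signal and the distance steps were added later. Python 3.11.15, NumPy 2.4.6, pandas 2.3.3, SciPy 1.17.1 and matplotlib 3.10.9 were used.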

Additional observations from a re-analysis of the deposited data

How the results depend on the processing

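The definition sets the size of the group. From 389 summits the number moved to 613 with promoter windows of 500 bp, 175 with 1500 bp, 593 with an outer limit of 3000 bp, 248 with 1500 bp and 184 with the peaks above the median rank of the thresholded list (the stronger peaks); owner genes numbered 578 with 500 bp and 180 with the stronger peaks. The top peaks of 1 replicate alone gave 372 to 381 summits and 355 to 372 owners. Summits found in both replicates made up 46.8% within 50 bp, 61.7% within 200 bp, 46.02% by reciprocal overlap of 50% and 88.7% with all relaxed peaks. Words of 6 letters more frequent at the summits numbered 42 within 25 bp and 29 with the stronger peaks, and there were 21 of 8 letters. Against the left window, each of the 4 words stayed past the threshold under every alternative run. With either replicate alone, the difference was 5.65 to 5.77 points for the core and 10.8 to 11.0 for GAGAGAGA. It was 7.35 to 8.87 points for AGACGCAG and 6.82 to 7.53 for AAGTGAAA. Differences from the right window under these alternatives are not given. Against promoter summits, the core difference was 2.17 points within 25 bp, where its interval no longer included 0. Owners with a promoter summit were 14.01% with windows of 500 bp (other genes 5.24%) and 12.8% with the stronger peaks (other genes 3.81%). No paired analysis was possible because there is 1 group. Of the 389, 71.7% had a summit meeting the same rule within 100 bp among the top peaks of replicate 2 alone and 75.8% among those of replicate 3 alone.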
